A study of Mus musculus with 6 samples.

Results

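The collagen genes of the mouse embryonic heart are described here in wild-type (WT) embryos and in embryos without Rnd3, a gene also called RhoE. The members were the genes whose only symbol in the array's annotation is Col, a number, the letter a and a number, and each was read from the probe set with the highest mean log2 signal over all arrays. There were 42 such genes among 18193, and they had 82 probe sets in all. Hearts were taken at E10.5 on the C57BL/6N background, and each of 3 WT and 3 knockout (KO) RNA samples was hybridised to its own Affymetrix whole-genome mouse array, 6 in all. The KO carries a gene trap that disrupts Rnd3 in the whole embryo, not in the heart alone, and per the series' design text the KO embryos die at or soon after this stage. WT and KO embryos are described there as littermates, yet the labels neither assign arrays to litters nor state how many hearts went into each RNA sample, so the p-values measure the spread between these arrays, which may be technical.

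Rnd3 encodes a small GTP-binding protein that restrains the kinase ROCK1. Collagens are secreted or membrane-anchored proteins whose chains wind around one another in a helix built from repeats of glycine and 2 further residues. Fibrillar collagens assemble into the ropes of the interstitial matrix, type IV collagens form the sheet-like network of basement membranes, and the other classes coat fibrils, form beaded filaments or short networks, or cross the cell membrane. In the embryonic heart, basement membranes surround the cardiomyocytes and the endocardium, while fibrillar collagen builds up in the cushions, which later become the valves, and in the epicardium and its derivatives.

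Several collagen genes lie next to each other in the genome, and some of these pairs show in the promoter sequence. Of the 42 genes, 7 pairs were direct neighbours among protein-coding genes of the GRCm38.p6 gene table, namely Col3a1 with Col5a2, Col9a1 with Col19a1, Col6a1 with Col6a2, Col6a4 with Col6a5, and the type IV pairs Col4a1 with Col4a2, Col4a3 with Col4a4 and Col4a5 with Col4a6. RefSeq promoter windows, from 250 bases before to 50 bases after a transcript start, were matched by symbol for 33 of the 42 genes (36 windows). Of the following windows, those of type IV are from the pairs of basement membrane genes detected here. The others are from Col1a2 and Col3a1, fibrillar genes with their highest KO signal on KO array 2. Each window is written 5′ to 3′ on the strand of its gene. The Col4a1 window lies at chr8:11312777-11313076 on the minus strand and the Col4a2 window at chr8:11312555-11312854 on the plus strand, and the capitals mark the 78 bases that both windows share as reverse complements. The Col4a5 window lies at chrX:141475169-141475468 (plus strand), the Col4a6 window at chrX:141474027-141474326 (minus strand), the Col1a2 window at chr6:4505368-4505667 (plus strand) and the Col3a1 window at chr1:45311288-45311587 (plus strand). In these 4 windows the capitals mark matches, on either strand, to the TATA box TATAAA, the CCAAT box CCAAT and the GC box GGGCGG.
Col4a1: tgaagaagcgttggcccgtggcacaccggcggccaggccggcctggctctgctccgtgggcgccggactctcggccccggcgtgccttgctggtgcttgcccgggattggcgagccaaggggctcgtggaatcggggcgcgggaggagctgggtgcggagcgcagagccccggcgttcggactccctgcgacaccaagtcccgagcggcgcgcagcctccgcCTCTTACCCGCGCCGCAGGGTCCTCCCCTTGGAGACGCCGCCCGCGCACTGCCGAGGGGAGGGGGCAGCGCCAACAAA
Col4a2: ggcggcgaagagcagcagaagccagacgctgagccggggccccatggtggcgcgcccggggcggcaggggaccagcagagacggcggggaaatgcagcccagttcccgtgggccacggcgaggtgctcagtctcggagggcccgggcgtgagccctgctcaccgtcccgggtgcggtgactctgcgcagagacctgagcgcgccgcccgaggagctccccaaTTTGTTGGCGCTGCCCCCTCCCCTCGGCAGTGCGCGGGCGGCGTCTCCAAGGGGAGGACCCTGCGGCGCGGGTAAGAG
Col4a5: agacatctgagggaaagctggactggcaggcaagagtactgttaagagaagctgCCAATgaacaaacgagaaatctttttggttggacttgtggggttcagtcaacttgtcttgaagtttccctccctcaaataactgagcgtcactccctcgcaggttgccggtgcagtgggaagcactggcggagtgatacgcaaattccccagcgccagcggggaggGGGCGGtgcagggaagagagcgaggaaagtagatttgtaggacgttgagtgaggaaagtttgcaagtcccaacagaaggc
Col4a6: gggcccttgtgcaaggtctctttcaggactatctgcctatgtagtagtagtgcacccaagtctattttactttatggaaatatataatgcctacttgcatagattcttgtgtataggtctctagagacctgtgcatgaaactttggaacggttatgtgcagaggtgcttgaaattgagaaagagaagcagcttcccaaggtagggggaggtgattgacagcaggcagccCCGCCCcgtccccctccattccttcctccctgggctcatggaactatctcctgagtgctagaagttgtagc
Col1a2: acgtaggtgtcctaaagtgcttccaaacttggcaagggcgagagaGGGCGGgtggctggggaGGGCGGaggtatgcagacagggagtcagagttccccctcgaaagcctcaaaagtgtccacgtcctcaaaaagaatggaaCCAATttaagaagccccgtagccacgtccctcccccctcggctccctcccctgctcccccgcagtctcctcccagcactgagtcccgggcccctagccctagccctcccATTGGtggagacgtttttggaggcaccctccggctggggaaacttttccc
Col3a1: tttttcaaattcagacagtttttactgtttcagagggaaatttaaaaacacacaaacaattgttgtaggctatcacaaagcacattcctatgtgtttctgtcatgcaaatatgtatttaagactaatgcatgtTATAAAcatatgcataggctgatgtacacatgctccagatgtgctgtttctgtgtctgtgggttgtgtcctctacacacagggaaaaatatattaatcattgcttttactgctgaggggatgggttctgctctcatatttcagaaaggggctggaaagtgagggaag
The Col4a1 and Col4a2 windows were the most GC-rich of those shown, at 74% and 73.7%, and the Col3a1 window the least, at 37.7%. The Col4a5 and Col4a6 windows lie 842 bases apart and share no base. The GC box was found in 22 of the 36 collagen windows (61.1%), against 35.7% of all 32851 windows in the table. The CCAAT box was found in 13 (36.1%, against 37.4% of all windows) and the TATA box in 5 (13.9%, against 13.6%). The median GC content was 59.8% in the collagen windows and 52.7% in all windows, and windows matched for GC content were not compared. A match describes these letters in this window and is not evidence that a factor binds there.

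The Rnd3 signal was 909, 954 and 862 on WT arrays 1, 2 and 3, and on the KO arrays it was 5.89, 12.3 and 121. All KO arrays were below all WT arrays, and KO array 3 was above the low-signal limit described next. Defining genes of cardiomyocytes (5 of 5), endothelium (5 of 5), cushion mesenchyme (6 of 6) and epicardium (5 of 5) were above this limit on all 6 arrays. The limit is the 40th percentile of each array, 44.5 to 52.8, and was chosen for this work rather than measured from blank spots. Xist, which is expressed in female tissue, read 10251, 12474 and 11878 on WT arrays 1, 2 and 3 but 539, 8884 and 28.4 on KO arrays 1, 2 and 3, so the sex of the tissue is partly confounded with genotype. KO array 2 is the KO array with a signal near that of WT. Fewer cells of a type and less RNA per cell cannot be told apart in these whole-heart samples either. Signals are MAS5 intensities on a linear scale. The level of a probe set is not set against that of another, because probe sets bind with different strength.

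Of the 42 collagen genes, 29 were above the limit on all 6 arrays, and the other 13 were above it on at most 2 arrays. The detected share was 69%, against 62.8% of all 18193 genes. By class, 8 of 11 fibrillar genes, 4 of 6 type IV genes, 6 of 9 fibril-associated (FACIT) genes, 3 of 5 beaded-filament genes, 3 of 4 transmembrane genes, 2 of 3 short-chain network genes and 1 of 2 multiplexins were detected, as were the anchoring-fibril gene Col7a1 and Col26a1. The genes above the limit on all 3 WT arrays and those above it on all 3 KO arrays were the same 29. Col9a2 was above it on 2 KO arrays and on 0 WT arrays, and when 1 array was left out the number above it on every KO array was 29 to 30. The 8 genes below the limit on every array were Col11a2, Col24a1, Col4a3, Col19a1, Col20a1, Col6a5, Col10a1 and Col17a1. These include the hypertrophic cartilage collagen Col10a1, at 1.66 to 9.61, and the hemidesmosome collagen of epithelia, Col17a1, at 1.12 to 21.9. Col5a3, Col4a4, Col15a1 and Col9a2 were above the limit on 2 arrays each and Col6a4 on 1.

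**Figure D1:**
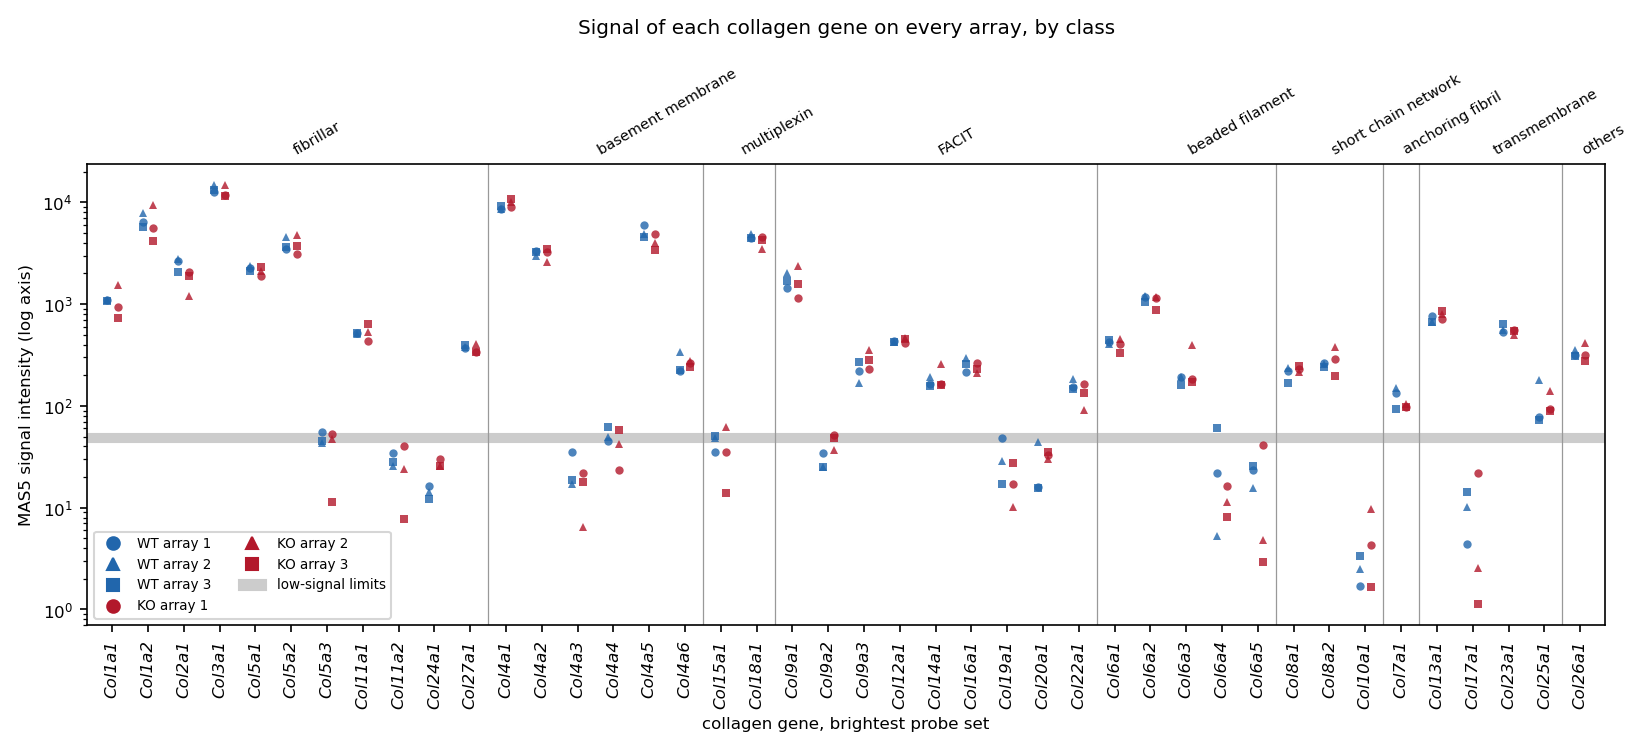
MAS5 signal intensity (log axis) of the brightest probe set of each of the 42 collagen genes, grouped by class, with a point for each of the 3 WT (blue) and 3 KO (red) arrays and a grey band for the range of the low-signal limits, 44.5 to 52.8. The 29 detected genes lie above the band on every array, and the points of both groups overlap for all of these but Col2a1.

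The chains that build a given collagen type were detected unevenly. Both chains of type I (Col1a1, Col1a2), the main chains of type V (Col5a1, Col5a2), the single chain of type III (Col3a1), both chains of type VIII (Col8a1, Col8a2) and the classical chains of type VI (Col6a1, Col6a2, Col6a3) were detected on every array. In type XI, whose remaining chain is a product of Col2a1, Col11a1 and Col2a1 were detected while Col11a2 read 7.74 to 40.8. In type IX, Col9a1 and Col9a3 were detected while Col9a2 read 25.4 to 52.1. In type IV, Col4a1, Col4a2, Col4a5 and Col4a6 were detected. Col4a3 and Col4a4, which with Col4a5 make the network of the mature glomerulus, read 6.40 to 35.1 and 23.4 to 62.4.

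No collagen gene passed the test between KO and WT. With limma across all 12712 genes that were above the limit on at least 3 arrays, 0 of the 29 tested collagens had an adjusted p below 0.05 (lowest 0.124), where 162 genes, 1.27% of all tested, did (0.787% higher and 0.488% lower in KO). At an unadjusted p below 0.05 there were 2 collagens, Col2a1 and Col4a5, or 6.9% of 29, against a background of 20.3%. The groups did not overlap for 1 collagen, Col2a1, against 26.3% of all genes tested (15.5% lower in KO). Log2 fold changes, KO minus WT, ran from -0.57 to 0.42 with a median of -0.07, beside a median of -0.04 over all genes tested, and 17 of the 29 were negative (58.6%, against 56.2% of all). The 95% interval of the difference lay within a 2-fold change in either direction for all 29 collagens (87.4% of all genes tested) and within a 1.5-fold change for 20 of them (69%, against 61%). The comparison leaves room for smaller differences, and a p above the threshold does not show that the groups were alike.

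**Figure D2:**
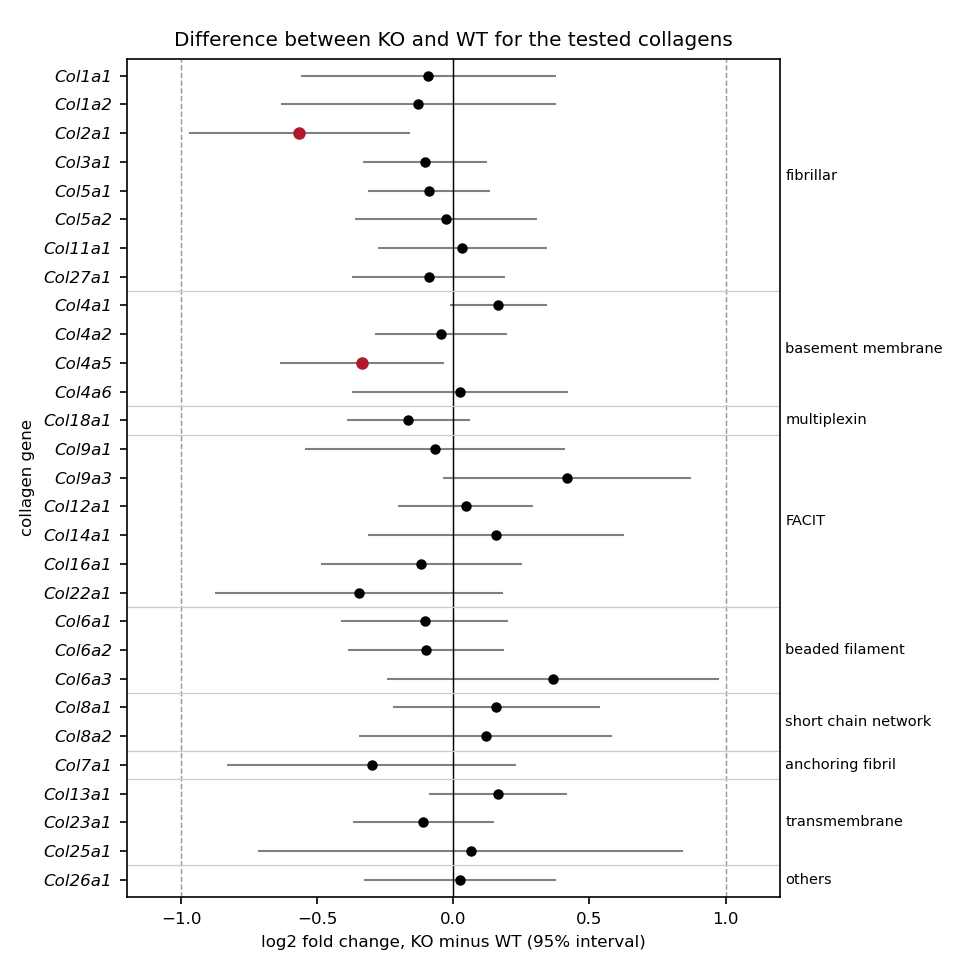
Log2 fold change, KO minus WT, of the 29 tested collagen genes by class, with the 95% interval from limma. Dashed lines mark a 2-fold change and red points an unadjusted p below 0.05. All intervals lie between the dashed lines, and those of Col2a1 (-0.97 to -0.16) and Col4a5 (-0.64 to -0.03) exclude 0.

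Among the fibrillar genes, Col2a1, the collagen of cartilage and of early embryonic mesenchyme and valve precursors, read 2638, 2773 and 2069 in WT, against 2045, 1197 and 1905 in KO. Every KO array was below every WT array, with KO array 2 far below and KO arrays 1 and 3 close under the lowest WT array. The log2 fold change was -0.57 (SE 0.18, limma adjusted p = 0.124). Leaving out KO array 1, it was -0.71 with an adjusted p of 0.0449, in a fit in which 7.34% of all genes tested were called and 3.68% were called lower in KO. Over 16 alternative settings the value ran from -0.93 to -0.33 and the adjusted p from 0.0449 to 0.343. Markers of notochord and cartilage were dim: none of 4 was above the limit on every array, and their summed signal was 169 to 234 in WT and 102 to 290 in KO. The summed signal of 5 foregut epithelium markers, 5138 to 5645 in WT and 4799, 2480 and 4110 on KO arrays 1, 2 and 3, had the same order over the KO arrays as Col2a1. Most of that sum is Krt8 (2987, 1248 and 2556 in KO) and Krt18 (1613, 1017 and 1431), which both had this order. Epcam (149, 89.6 and 82.6), Cdh1 (32.4, 76.3 and 32.7) and Foxa2 (17.3, 50.1 and 7.73) did not have it. The summed signal of 5 cardiomyocyte markers was 125840 to 138230 in WT and 135260, 122360 and 130120 on KO arrays 1, 2 and 3. This sum had the same KO order as Col2a1, as did Myh6, Myl7 and Tnnt2, while Actn2 and Nppa did not. The part of any of these cells in the Col2a1 difference was not tested.

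Col1a1 and Col1a2 encode the chains of type I collagen, the main fibril of interstitial matrix. Col1a1 read 1093, 1091 and 1079 in WT, against 937, 1552 and 728 in KO. The WT arrays were nearly equal, while KO array 2 was the highest of all and KO array 3 the lowest. Col1a2 read 6407, 7818 and 5690 in WT, against 5604, 9338 and 4168 in KO, again with KO array 2 highest and KO array 3 lowest. The mean differences were small, -0.09 (SE 0.21) for Col1a1 and -0.13 (SE 0.23) for Col1a2, with adjusted p of 0.840 and 0.792. A further probe set of each gene gave the same order within KO, at 319, 420 and 203 for Col1a1 and 2110, 3744 and 1609 for Col1a2. The dimmest tested Col1a2 probe set, close to the limit, did not follow it (62.7, 52.7 and 64.3 in KO). These 2 genes are described because of their spread, which was seen in the values.

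Col3a1, the fibrillar partner of type I in stretchable tissue, read 12704, 14920 and 13203 in WT, against 11864, 14874 and 11433 in KO (-0.10, SE 0.10). KO arrays 1 and 3 lay below all WT arrays, while KO array 2 lay between WT arrays 3 and 2. Its other tested probe set had the opposite sign (0.30), at 2288, 2698 and 2040 in WT, against 2296, 4133 and 2465 in KO. Col5a1 and Col5a2 encode chains of type V, which starts and limits the width of type I fibrils. Col5a1 read 2264, 2384 and 2093 in WT, against 1893, 2122 and 2332 in KO (-0.09, SE 0.10), and Col5a2 read 3461, 4585 and 3622 in WT, against 3091, 4759 and 3700 in KO (-0.03, SE 0.15). For both genes the ranges of WT and KO overlapped. Col11a1, of the type XI core of thin fibrils, read 517, 508 and 523 in WT, against 437, 528 and 636 in KO (0.03, SE 0.14). Col27a1, a fibrillar collagen of cartilage and other embryonic tissue, read 368, 383 and 396 in WT, against 337, 405 and 339 in KO (-0.09, SE 0.13). In both of these the WT arrays were closer to one another than the KO arrays were. Over the 8 tested fibrillar genes the median was -0.09 and limma adjusted p ran from 0.124 to 0.939. Of the 8 values, 7 were negative (87.5%, against 56.2% of all genes tested). The other tested probe set had the opposite sign for Col5a2 (0.16) and Col11a1 (-0.13), as for Col3a1. The other tested probe sets of Col1a1, Col1a2, Col5a1 and Col27a1 had negative values too. With Xist as a covariate the class median was 0.076.

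The type IV genes had both signs. Col4a1 and Col4a2 encode the chains of the network found in nearly all basement membranes and share the promoter region shown above. Col4a1 read 8674, 8619 and 9282 in WT, against 9032, 10144 and 10672 in KO, with KO arrays 2 and 3 above every WT array and KO array 1 within the WT range (0.17, SE 0.08, adjusted p = 0.277). Col4a2 read 3304, 2985 and 3283 in WT, against 3222, 2619 and 3495 in KO, with KO array 2 the lowest and KO array 3 the highest of all (-0.05, SE 0.11, adjusted p = 0.853). On KO array 2, the brightest Col4a1 probe set was thus above the WT range and Col4a2 below it. The other tested Col4a1 probe set read 1150 on that array, inside its WT range of 1059 to 1445, and its log2 difference was 0.04.

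Col4a5 and Col4a6 lie head to head on the X chromosome and encode chains of basement membranes in smooth muscle, kidney and other organs. Col4a5 read 6010, 4882 and 4524 in WT, against 4852, 4027 and 3381 in KO. KO arrays 2 and 3 were below every WT array, while KO array 1 fell within the WT range. The log2 fold change was -0.34 (SE 0.14, adjusted p = 0.201). Over the 16 alternatives it ran from -0.47 to -0.17 with an adjusted p of 0.0533 to 0.63. It was -0.21 without KO array 3 and -0.22 without WT array 1. A dimmer Col4a5 probe set did not show the difference (773, 691 and 489 in WT, 621, 763 and 549 in KO). Col4a6 read 222, 338 and 224 in WT, against 264, 275 and 242 in KO, a difference of 0.02 (SE 0.18), with all KO values inside the WT range. Over the 4 tested type IV genes the median was -0.01. The multiplexin Col18a1, the source of endostatin in the basement membrane zone, read 4482, 4833 and 4487 in WT, against 4592, 3515 and 4267 in KO (-0.17, SE 0.10, adjusted p = 0.399), with KO arrays 2 and 3 below the WT range. The difference was -0.05 without KO array 2 and -0.25 without KO array 1. The other tested Col18a1 probe set read 3120, 2562 and 2972 in KO, against 2742 to 3151 in WT. There only KO array 2 was below the WT range, and the log2 difference was -0.06. Col15a1, the other multiplexin, was not tested and read 14.0 to 62.4.

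Fibril-associated collagens coat the surface of fibrils. Col9a1 and Col9a3 encode chains of type IX, which decorates type II fibrils. Col9a3 had the highest log2 fold change of the 29 collagens, 0.42 (SE 0.21, adjusted p = 0.285), with 219, 166 and 268 in WT, against 232, 354 and 282 in KO. KO arrays 2 and 3 were above the WT range and KO array 1 inside it, and its other tested probe set also had a positive value (0.52). Col9a1 read 1446, 2009 and 1700 in WT, against 1147, 2371 and 1576 in KO (-0.07, SE 0.22), so that KO array 1 was the lowest and KO array 2 the highest array. Col12a1, which links fibrils in tissue under tension, read 431, 428 and 427 in WT, against 415, 460 and 453 in KO (0.04, SE 0.11). Col14a1, a relative of Col12a1, read 164, 191 and 158 in WT, against 165, 261 and 160 in KO (0.16, SE 0.21). Only KO array 2 left the WT range of Col14a1. Col16a1 read 213, 298 and 257 in WT, against 263, 210 and 231 in KO (-0.12, SE 0.17), with overlap. Col22a1, a collagen of tissue junctions such as that of muscle and tendon, read 155, 185 and 147 in WT, against 165, 91.2 and 135 in KO (-0.35, SE 0.24). Its further tested probe sets had 0.17 and -0.06, so they did not share a sign.

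The type VI chains form beaded microfilaments near cells. Col6a1 read 428, 405 and 443 in WT, against 407, 457 and 332 in KO (-0.10, SE 0.14), and Col6a2 read 1167, 1208 and 1045 in WT, against 1161, 1181 and 871 in KO (-0.10, SE 0.13). KO array 3 was the lowest array for both. Col6a3, the largest of these chains, read 191, 193 and 159 in WT, against 185, 394 and 172 in KO (0.37, SE 0.28, adjusted p = 0.493). Its positive value came from KO array 2, and without that array it was -0.02. The short-chain network genes Col8a1 and Col8a2, whose products form lattices in vessel walls and under endothelium, had 0.16 (SE 0.17) and 0.12 (SE 0.21). Col8a1 read 219, 237 and 167 in WT, against 229, 213 and 246 in KO, and Col8a2 read 265, 261 and 238 in WT, against 286, 377 and 195 in KO. For Col8a2 the KO arrays spanned the whole WT range on both sides.

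Col7a1, the anchoring-fibril collagen known from skin, read 134, 149 and 93.6 in WT, against 98.0, 104 and 98.1 in KO (-0.30, SE 0.24). WT array 3 was lower than all KO arrays, so the groups overlapped. Among transmembrane collagens, Col13a1, found at cell adhesion sites, read 773, 660 and 673 in WT, against 713, 793 and 853 in KO (0.16, SE 0.12, adjusted p = 0.461). Col25a1, a neuronal collagen needed for muscle innervation, read 78.0, 180 and 72.9 in WT, against 93.5, 140 and 89.1 in KO (0.06, SE 0.36), with WT array 2 standing apart. Col26a1, a secreted protein with short collagen stretches, read 316, 354 and 312 in WT, against 319, 415 and 276 in KO (0.02, SE 0.16).

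Col23a1, a further transmembrane collagen, depended on the probe set. The brightest read 534, 560 and 644 in WT, against 558, 502 and 547 in KO (-0.11, SE 0.12, adjusted p = 0.640). The other 2 had positive values, of 0.66 (240, 201 and 211 in WT, 238, 443 and 379 in KO) and 0.54 (179, 269 and 333 in WT, 345, 422 and 342 in KO). When every probe set was tested on its own, these had adjusted p of 0.147 and 0.21. Over all tested collagens there were 22 further probe sets bright enough to test, and 14 of these had the sign of the brightest. Many of the values compared in this way were close to 0.

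KO arrays differed more from one another in collagen signal than WT arrays did. The median SD of log2 signal over the 29 collagens was 0.14 in WT and 0.25 in KO, beside 0.13 and 0.17 over all genes tested, and the SD was larger in KO for 22 of 29 collagens (75.9%, against 60.5% of all). KO array 2 was the highest of the 6 arrays for 12 collagens (41.4%, against 22.3% of all genes) and WT array 2 for 10 (34.5%, against 17.7%). KO array 3 was the lowest for 8 (27.6%, against 20.1%), KO array 1 for 6 (20.7%, against 11%) and KO array 2 for 6 (20.7%, against 26.3%). KO array 1 was the highest for 0, against 10.7% of all genes. Relative to the WT mean, the median fibrillar gene was at -0.24 on KO array 1, 0.11 on KO array 2 and -0.21 on KO array 3. For the type IV genes the same medians were 0.02, -0.09 and 0.03. For the FACIT genes they were -0.01, 0.29 and -0.10, and for the beaded-filament genes 0.03, 0.10 and -0.36. Not every fibrillar gene followed its class, as Col2a1 was at -1.05 on KO array 2 and Col11a1 at 0.30 on KO array 3.

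**Figure D3:**
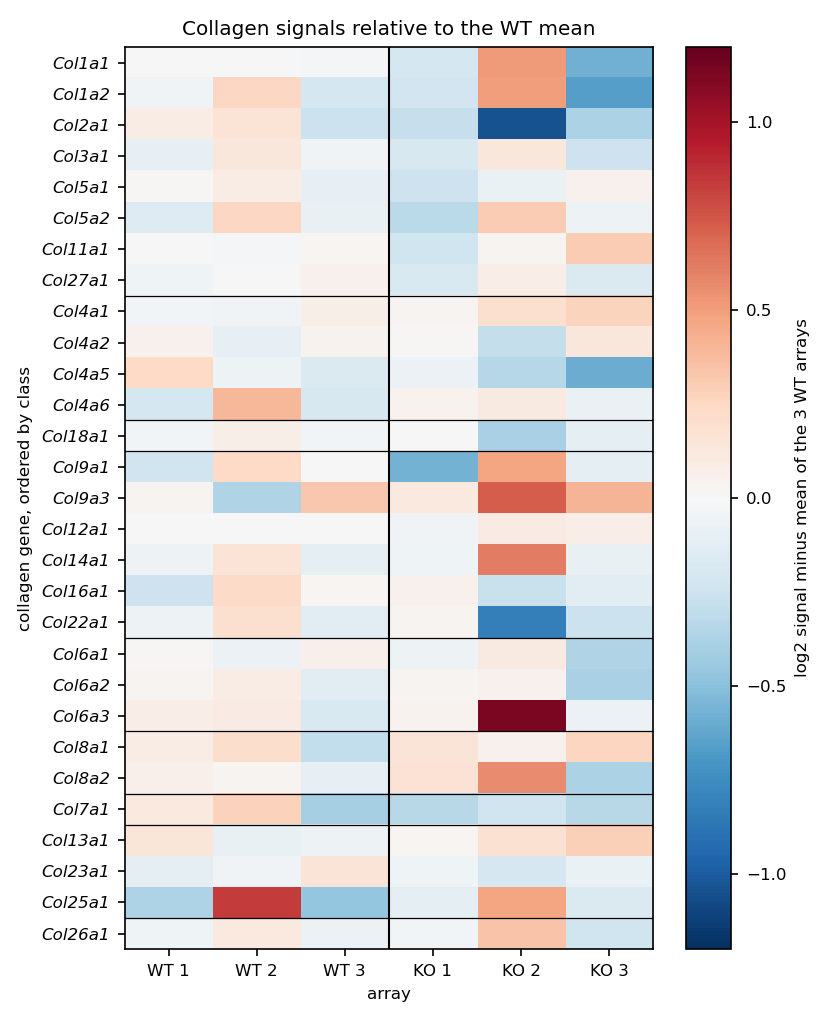
Log2 signal of the 29 tested collagen genes on each array minus the mean of the 3 WT arrays, ordered by class, on a colour scale from blue (lower) to red (higher). KO array 2 is red for Col1a1, Col1a2, Col6a3, Col14a1 and Col8a2 and blue for Col2a1, Col22a1 and Col18a1, while KO array 3 is blue for Col1a1 and Col1a2.

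Col2a1 had an unadjusted p below 0.05 in each of the 6 fits that left out 1 array, while the other collagens at that level varied. Without KO array 2 there were 4 of 29, Col1a1, Col1a2, Col2a1 and Col3a1, against 17.7% of all genes tested in that fit, and the median of the 29 was -0.11. Without KO array 3 the median was 0.02, and Col2a1 was the single collagen at that level, against 16.8% of all genes. With log2 Xist signal added to the model to stand for embryo sex, the median was 0.10 and Col1a1 and Col1a2 changed sign, to 0.49 and 0.50 (adjusted p = 0.0891 and 0.112). In that fit 7 of 29 collagens had an unadjusted p below 0.05 (Col18a1, Col1a1, Col1a2, Col2a1, Col4a2, Col6a3 and Col8a2), against 20.4% of all genes. The Xist signal was 539, 8884 and 28.4 on KO arrays 1, 2 and 3, so that covariate differs among all 3. It is nearest to WT on KO array 2. The fitted values thus rest largely on KO array 2, which stood 0.51 above the WT mean for Col1a1 and 0.50 above it for Col1a2. No collagen passed the adjusted threshold in any of these 3 fits.

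Some other markers also differed between KO arrays 2 and 3. The summed signal of 5 epicardial markers (Wt1, Tbx18, Tcf21, Upk3b and Aldh1a2) was 7789 to 8185 in WT, 8754 on KO array 1, 9688 on KO array 2 and 5665 on KO array 3, the same order on KO arrays 2 and 3 as Col1a1 and Col1a2. The summed signal of 6 cushion mesenchyme markers was 19181 to 21312 in WT and 18132, 18302 and 20466 on KO arrays 1, 2 and 3, and most of that sum is Vcan, which was lowest on KO array 2. Of its other members, Postn (2701, 4799 and 3903 in KO) and Prrx1 (213, 430 and 344 in KO) were highest on KO array 2. Msx1 (693, 400 and 705 in KO) was lowest there. Twist1 (1077, 1077 and 1293) and Sox9 (731, 761 and 893) had their highest KO signal on KO array 3, so the list had no common order. The liver and yolk sac endoderm markers summed to 1368 to 7009 in WT and 227 to 1809 in KO, with 1 of 5 above the limit on all arrays. Most of the WT sum is Afp (1116, 2496 and 6054 in WT, 216, 1074 and 2.78 in KO). Afp and Alb were lower in KO without overlap, while Apoa1, Apob and Ttr overlapped between the groups. Of the foregut epithelium markers, whose sums are given with Col2a1, 3 of 5 were above the limit on all arrays. The part of any of these cells in the collagen signals was not tested.

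The proteins that fold, cut, cross-link, bind and degrade collagen were examined from lists chosen by function, and 78 of their 84 genes had a probe set of their own on the array. Of 63 tested, 0 passed over all genes in either direction, with 15 at an unadjusted p below 0.05 (23.8%, against 20.3% of all genes tested), 3 higher and 12 lower in KO. In the endoplasmic reticulum, 16 of 21 tested folding and secretion genes had a negative value, and the list's median was -0.15, beside 56.2% negative values and a median of -0.04 over all genes tested. P4hb, protein disulphide isomerase and the beta subunit of prolyl 4-hydroxylase, read 10495 ± 258 in WT and 7573 ± 1406 in KO (SD, n = 3 per group), which is -0.49 on the log2 scale (SE 0.12, limma adjusted p = 0.0628). Its KO arrays all lay below the WT arrays. Among the alternatives, P4hb passed only with quantile normalization (adjusted p = 0.0431) and when KO array 1 was left out (adjusted p = 0.016). In that fit, which called 7.34% of all genes, 5 of the related genes passed, namely P4hb, Adgrg6, Ctsk, Postn and Lama5. The P4hb signals on the KO arrays, 8790, 6033 and 7895, had the same order as Krt8 and Krt18, which make up most of the foregut epithelium sums. The foregut markers Epcam, Cdh1 and Foxa2 did not have that order. The summed cardiomyocyte signal, given with Col2a1, had that order, although its members Actn2 and Nppa did not. The part of foregut epithelial cells or of cardiomyocytes in the P4hb difference was not tested. Serpinh1, the collagen chaperone HSP47, had -0.24 (SE 0.09, adjusted p = 0.180), and P4ha1, a catalytic subunit of prolyl 4-hydroxylase, had -0.29 (SE 0.12, adjusted p = 0.193). The collagen galactosyltransferase gene Colgalt2 had the lowest value of the 63, -1.21 (SE 0.51, adjusted p = 0.217), with KO array 1 below the low-signal limit.

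Outside the cell, 7 of 8 tested genes of propeptide cleavage and cross-linking had negative values (median -0.22), read against the same all-gene values. Pxdn, peroxidasin, which cross-links type IV collagen, read 5307 ± 407 in WT and 4331 ± 282 in KO (-0.29, SE 0.09, limma adjusted p = 0.102). Pcolce, an enhancer of procollagen cleavage, had -0.21 (SE 0.08, adjusted p = 0.149), and Loxl3, a lysyl oxidase relative, had -0.35 (SE 0.17, adjusted p = 0.273). The lysyl oxidase gene Lox had the positive value of the 8, 0.50 (SE 0.29, adjusted p = 0.361), and read 401 on KO array 2 against 140 to 208 on the others. Tll1, Tll2 and Loxl4 were too dim to test.

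Of 8 tested receptors, Adgrg6, an adhesion receptor that binds type IV collagen, read 1379, 1039 and 1583 in WT, against 1883, 2104 and 2050 in KO. All KO arrays were above all WT arrays. The log2 fold change was 0.61 (SE 0.14, limma adjusted p = 0.0576). Among the 16 alternatives, Adgrg6 passed only with a stricter filter on dim probe sets (adjusted p = 0.0475), with the replicate number as a block (0.0459) and without KO array 1 (0.0346). Those fits called 2.54%, 1.49% and 7.34% of all genes tested. The Adgrg6 probe set is of a kind that can match several transcripts. Adgrg1, a receptor for type III collagen, had -0.55 (SE 0.20, adjusted p = 0.167), and Mrc2, a receptor for collagen uptake, had -0.22 (SE 0.11, adjusted p = 0.299). The median of the receptor list was -0.07.

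Among 8 tested genes of collagen turnover, with a median of 0.07, Ctsk, the collagen-degrading protease cathepsin K, had 0.62 (SE 0.23, adjusted p = 0.169) and passed when KO array 1 was left out (adjusted p = 0.0426). Reck, a membrane inhibitor of metalloproteinases, had -0.33 (SE 0.11, adjusted p = 0.147), and Timp1, a secreted inhibitor, had 0.26 (SE 0.12, adjusted p = 0.252). The collagenase genes Mmp1a, Mmp8 and Mmp13 were below the limit on all 6 arrays, while Mmp14, a membrane collagenase, read 4686 ± 480 in WT and 5182 ± 393 in KO. Among 18 tested fibril and basement membrane partners (median -0.01), the laminin chain gene Lama1 read 170, 221 and 119 in WT, against 82.6, 104 and 63.3 in KO, with no overlap (-1.01, SE 0.28, adjusted p = 0.0895). The proteoglycan gene Vcan had -0.23 (SE 0.09, adjusted p = 0.163), and Nid2, the linker of laminin and type IV collagen, had 0.27 (SE 0.11, adjusted p = 0.197). Of the small fibril-binding proteoglycans, Lum was highest on KO array 2, and Dcn and Bgn were too.

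**Figure D4:**
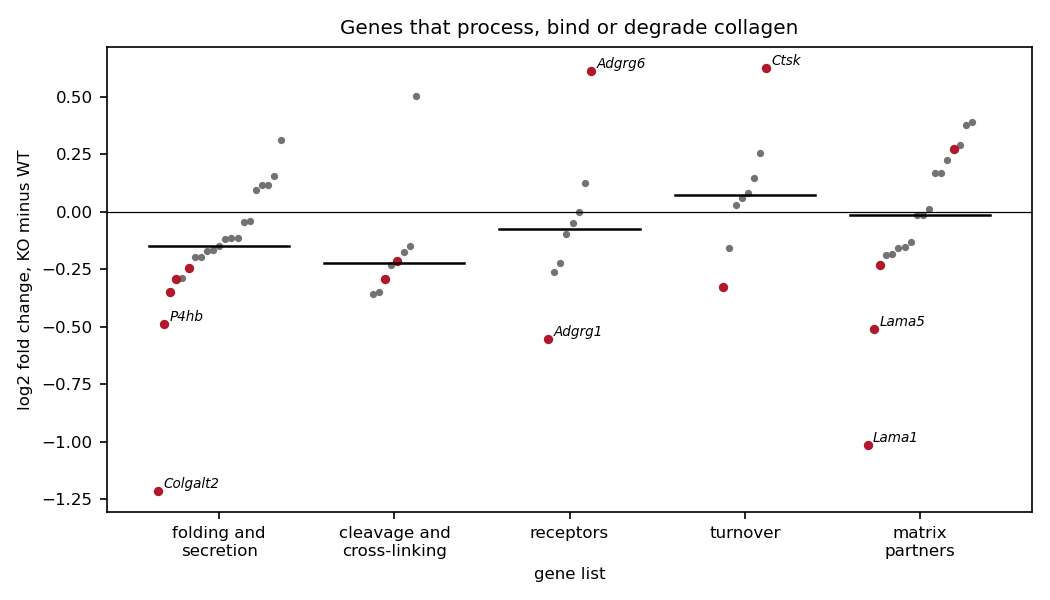
Log2 fold change, KO minus WT, of the 63 tested genes that fold and secrete, cleave and cross-link, bind, degrade or accompany collagen, with a point per gene, red where the unadjusted p is below 0.05, and a bar at the median of each list. The medians are -0.15, -0.22, -0.07, 0.07 and -0.01 from left to right, and no gene passed the adjusted threshold.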

How the data were processed

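Heart RNA of 6 E10.5 mouse embryo samples, 3 WT and 3 KO by the genotype in their labels, had been hybridised to Affymetrix arrays. The authors deposited 1 linear intensity for each probe set and array. The submitters' processing notes name MAS5 and Affymetrix Expression Console, and their versions are not given here. Each array has the same mean, 500, after trimming 2% at each end, so a general change in RNA amount cannot be seen. Low intensities scatter widely, and the number of arrays limits the precision.

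The 64 control probe sets were left out. Of the other 45037, 34945 had 1 symbol in the platform annotation, 932 several, and 9160 were unnamed here. Log2 signals of the brightest probe set per gene entered limma (version 3.58.1, R 4.3.3, lmFit, and eBayes with its trend option) as KO minus WT, for 12712 genes above each array's 40th percentile on at least 3 of 6 arrays, with Benjamini-Hochberg adjustment over all of them and a threshold of 0.05. SE is limma's standard error. The procedure was tested on simulated data. The collagen members, the lists and the alternatives were chosen with earlier results of these data known. All collagens are named. In each list of collagen-related genes, the 3 with the smallest p are named, and Colgalt2, Mmp1a, Mmp8, Mmp13, Mmp14, Lum, Dcn, Bgn, Lox, Loxl4, Tll1, Tll2, Postn and Lama5 were added after their values were seen. Figures were drawn with matplotlib 3.10.9.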

Additional observations from a re-analysis of the deposited data

How the results depend on the processing

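Over 16 alternatives, 0 collagens passed in each but the fit without KO array 1, which called Col2a1. The count of all genes called, 162, was less stable: 83 with median centring, 1 with no filter, 256 with a stricter filter, 0 with probe sets averaged per gene, 1 without the intensity trend and 6 with Xist as a covariate. Among the collagen-related genes 1 passed with quantile normalization, 1 with the stricter filter and 1 with a block for replicate number, where 189 genes and 0 collagens were called. Same-numbered WT and KO arrays had deviations from their group means that correlated at 0.0182, 0.0573 and 0.015 over genes. Differently numbered arrays correlated at -0.0371 to 0.0206. These values cannot show whether the numbers mark litters. The numbers were not taken as pairs, because the labels do not say that they are. Leaving out 1 array at a time gave 0 to 917 genes, 0 to 1 collagens, 0 to 5 related genes and a collagen median of -0.11 to 0.021. The fit with the Xist covariate rests largely on KO array 2. With the Xist covariate the collagen median was 0.10, and signs turned for Col3a1 (0.10), Col27a1 (0.047), Col6a2 (0.14), Col6a1 (0.14), Col1a1 (0.49), Col1a2 (0.50), Col5a2 (0.17), Col11a1 (-0.12) and Col9a1 (0.25). With probe sets averaged they turned for Col3a1 (0.10), Col9a3 (-0.13), Col23a1 (0.36), Col5a2 (0.067), Col11a1 (-0.050) and Vcan (0.24). With median centring they turned for Col4a2 (0.014) and Col5a2 (0.032). When 1 array was left out, values that turned sign ranged from -0.13 to 0.074 for Col4a2, -0.080 to 0.22 for Col4a6, -0.071 to 0.28 for Col14a1, -0.016 to 0.58 for Col6a3, -0.18 to 0.041 for Col6a2, -0.21 to 0.021 for Col6a1, -0.11 to 0.37 for Col8a2, -0.17 to 0.48 for Col25a1, -0.14 to 0.16 for Col26a1, -0.40 to 0.15 for Col1a1, -0.45 to 0.14 for Col1a2, -0.19 to 0.12 for Col5a2, -0.10 to 0.17 for Col11a1 and -0.34 to 0.18 for Col9a1. The cause of these shifts was not tested. The dim collagens, 13 of 42, give no usable difference at this signal, and 3 arrays per group limit the precision of the rest.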

Other observations

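Below the low-signal limit, where no test was made, the fibrillar collagen gene Col24a1 read 16.2, 14.2 and 12.1 in WT, against 30.3, 25.6 and 25.5 in KO. The type IX chain gene Col9a2 read 34.2, 25.4 and 25.4 in WT, against 52.1, 37.3 and 48.4 in KO, above the limit on KO arrays 1 and 3. The groups did not overlap for either gene, and signals this low have no reliable order on this scale. A dim Col5a1 probe set, above the limit on 4 arrays, read 78.7, 78.3 and 89.8 in WT, against 18.3, 75.2 and 30.6 in KO (log2 difference -1.24), whereas the brightest Col5a1 probe set differed by -0.09. A Col27a1 probe set other than the brightest read 205, 184 and 271 in WT, against 207, 150 and 91.1 in KO.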
